A study of Danio rerio with 6 samples.

Results

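The genes described here encode subunits of Polycomb repressive complex 1 (PRC1). They were the 9 zebrafish genes rnf2, bmi1a, bmi1b, cbx2, cbx7a, cbx8a, cbx8b, pcgf1 and pcgf6, taken by symbol, and each had exactly 1 row among the 21317 genes of the expression table. RNA had been sequenced from Tg(c-mybhyper:GFP) embryos at 72 hpf (hours post-fertilization), kept from 30 hpf either in 60 μM tanshinone I (Tan I), a lipid-soluble compound of Salvia miltiorrhiza, or in its solvent DMSO, with 3 libraries in each group. Both groups carried the c-mybhyper transgene, which gives a zebrafish model with an abnormally expanded myeloid lineage, so the data hold no comparison with wild type fish. The number of embryos per library was not stated, and the p-values measure the spread between these libraries only. The study examined Tan I for inhibition of EZH2, the catalytic subunit of PRC2. The question was therefore whether RNA of PRC1, whose canonical form binds the mark that PRC2 places, differed after the treatment.

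PRC1 is an E3 ubiquitin ligase for histone H2A, and it compacts chromatin at repressed developmental genes. Every form of the complex is built on a RING1 protein (Rnf2, also called Ring1b, in zebrafish) bound to a PCGF protein. In canonical PRC1 the PCGF protein is Bmi1 or its relative Pcgf2, and a CBX protein holds the complex on chromatin by binding H3K27me3, the mark that PRC2 places. Variant PRC1 instead carries Rybp or Yaf2, has PCGF proteins such as Pcgf1 and Pcgf6, and can be recruited without H3K27me3. Zebrafish that lack rnf2 fail to form pectoral fins and most of the head skeleton, and in mouse BMI1 is required for the self-renewal of blood stem cells.

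Of the 9 genes, 8 differed little between the groups, with log2 fold changes (Tan I minus DMSO) between -0.084 and 0.067. The exception in size was cbx7a, a chromodomain gene of canonical PRC1, whose level was 1.69-fold that of DMSO and whose values did not overlap between the groups, although its adjusted p of 0.0561 in the limma fit missed the threshold. Levels are normalized read counts, that is, reads per gene divided by 1 size factor per library, and they are not corrected for gene length, so they are compared between groups and not between genes. Genes were called at a Benjamini-Hochberg adjusted p under 0.05 in a limma fit to log2(value + 1) over all 20836 genes with a mean of at least 10, all 9 PRC1 genes among them. None of the 9 was called, against 2.57% of all tested genes (2.07% higher and 0.504% lower). At an unadjusted limma p under 0.05 there was 1 of the 9, cbx7a, against 15.3% of all tested genes. The groups did not overlap for 1 of the 9, again cbx7a, against 21.1% of all tested genes. With DESeq2 and with edgeR on the whole reads recovered from the table, 1 of the 9 was called, cbx7a in both cases, against 3.13% of all tested genes with DESeq2 and 2.69% with edgeR.

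**Figure D1:**
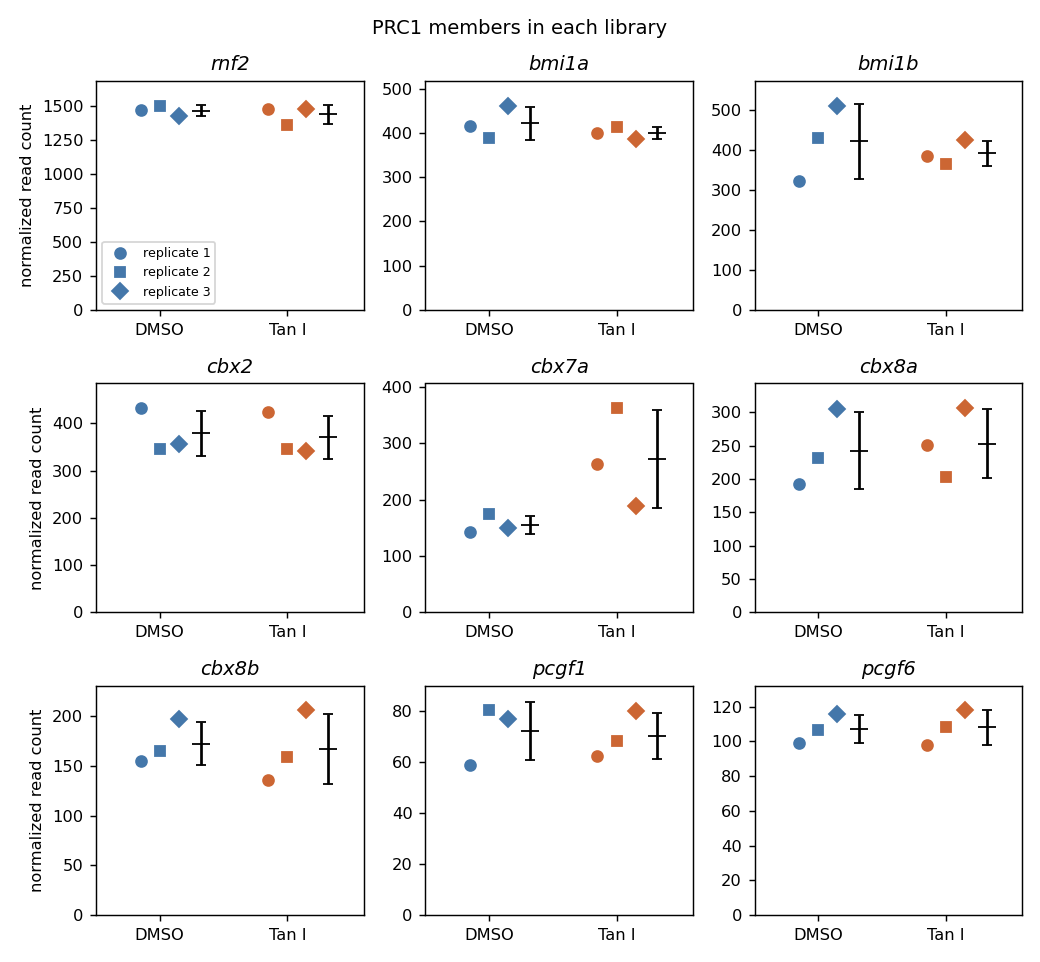
Normalized read counts (vertical axes, each from 0) of the 9 PRC1 genes in the 3 DMSO libraries (blue) and the 3 Tan I libraries (orange), with the replicate number given by the marker shape. Black bars show the mean and SD of each group (n = 3). The Tan I values of cbx7a, from 189 to 362, lie above its DMSO values, from 143 to 174, and the groups overlap for the 8 other genes.

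The libraries held 15874701 to 16959503 recovered reads in DMSO and 20451593 to 24932190 in Tan I, so the Tan I libraries were all deeper. On the first principal component of all tested genes, Tan I replicate 3 lay at 9.75, nearer to the DMSO libraries (-22.4 to -18.0) than Tan I replicates 1 and 2 (26.7 and 24.8). The labels name the sample embryonic cells and the RNA came from embryos. Defining genes of muscle, neurons, neural progenitors, epidermis, lens, liver, erythroid and myeloid cells, blood stem and progenitor cells and germ cells were measured (30 of the 31 listed genes), and none of them stood at 0. One of the 30, the liver gene tfa, was called (log2 fold change -0.73, limma adjusted p 0.000303), against 2.57% of all tested genes. The other liver genes, fabp10a and apoa2, lay at -0.53 and -0.0045 (limma adjusted p 0.0895 and 0.988). In such mixed RNA, fewer cells of a type and less RNA per cell cannot be told apart.

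The catalytic subunit was considered first, since rnf2 was the only RING1-type gene measured here. The normalized read count of rnf2 (ENSDARG00000010381) of the 3 DMSO libraries, in replicate order, was 1471, 1506 and 1429, and that of the Tan I libraries was 1478, 1363 and 1479. The DMSO values lay inside the range of the Tan I values but for DMSO replicate 2, the highest of the 6. The means of 3 libraries were 1469 ± 38.3 (SD) for DMSO against 1440.0 ± 66.4 (SD) for Tan I. At -0.029 ± 0.067 (SE), the log2 difference was not called (limma adjusted p 0.879), and its 95% interval ran from 0.886-fold to 1.08-fold. Of the 9 genes it was the most tightly measured, at 1240 to 1901 reads per library. The 3 genes whose pattern over the 6 libraries lay nearest to that of rnf2, among 15067 genes with a mean of at least 100, were mfap2, znf1035 and kif26ab. Their root mean square differences from it were 0.0135, 0.0146 and 0.0163 on the centred log2 scale. As they were chosen for this likeness, they are no evidence of a link to rnf2.

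Both genes for Bmi1, the PCGF partner of canonical PRC1, were slightly lower in Tan I, within their spread. For bmi1a (ENSDARG00000006010) the normalized read count was 415, 389 and 462 with DMSO, in replicate order, against 399.5, 413 and 387 with Tan I. The Tan I values were close together and the groups overlapped. The log2 difference of bmi1a was -0.073 ± 0.093 (SE) at a limma adjusted p of 0.766, with a 95% interval of 0.827-fold to 1.09-fold. For bmi1b (ENSDARG00000013076) the count was 324, 431 and 512 in DMSO and 386, 364 and 426 in Tan I. The DMSO libraries were spread widely, with a coefficient of variation of 22.3% against 7.97% in Tan I, and they enclosed the Tan I values. For bmi1b the log2 difference was -0.084 ± 0.140 (SE) at a limma adjusted p of 0.829, with an interval of 0.764-fold to 1.16-fold. The balance of the paralogs, log2(bmi1a + 1) minus log2(bmi1b + 1), was 0.020 ± 0.292 in DMSO and 0.031 ± 0.160 in Tan I (values over 3 libraries ± SD; exact permutation test, two-sided, p = 0.8, where 0.1 is the smallest p that 3 against 3 libraries allow).

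The CBX genes encode the readers of H3K27me3. The largest difference among the PRC1 genes was that of cbx7a (ENSDARG00000038025), whose mammalian ortholog favours self-renewal of blood stem cells when overexpressed in mouse. Its normalized read count was 143, 174 and 149 with DMSO, in replicate order, against 264, 362 and 189 with Tan I. Each Tan I library lay above each DMSO library, but Tan I replicate 3 only just, at 189 against the highest DMSO value of 174. The recovered reads behind these values were 124, 143 and 134 in DMSO and 339, 387 and 220 in Tan I. The means of 3 libraries were 155 ± 16.1 (SD) for DMSO against 272 ± 86.8 (SD) for Tan I, a coefficient of variation of 10.4% in DMSO and 32.0% in Tan I. The log2 fold change was 0.76 ± 0.19 (SE), with a 95% interval of 0.35 to 1.17 (1.27-fold to 2.25-fold) and an unadjusted limma p of 0.00156.

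Whether cbx7a passed the threshold turned on the method and on 1 library. The adjusted p was 0.00285 with DESeq2 and 0.0474 with edgeR, both on the recovered reads, and 0.0224 with limma and sample quality weights. Leaving out Tan I replicate 3 gave a log2 fold change of 0.99 with a limma adjusted p of 0.00208. Leaving out Tan I replicate 2, the highest library, gave 0.53 with a limma adjusted p of 0.214. Each of the other libraries, left out in turn, gave 0.70 to 0.84 with a limma adjusted p of 0.132 to 0.170. Of the 18 alternative settings 5 put cbx7a past the threshold, and it was higher in Tan I in all 18. The adjusted p ran from 0.00208 to 0.244, the highest being that of limma without the mean-variance trend. After all libraries were thinned to the smallest read total, the log2 fold change was 0.78 with a limma adjusted p of 0.0519.

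**Figure D2:**
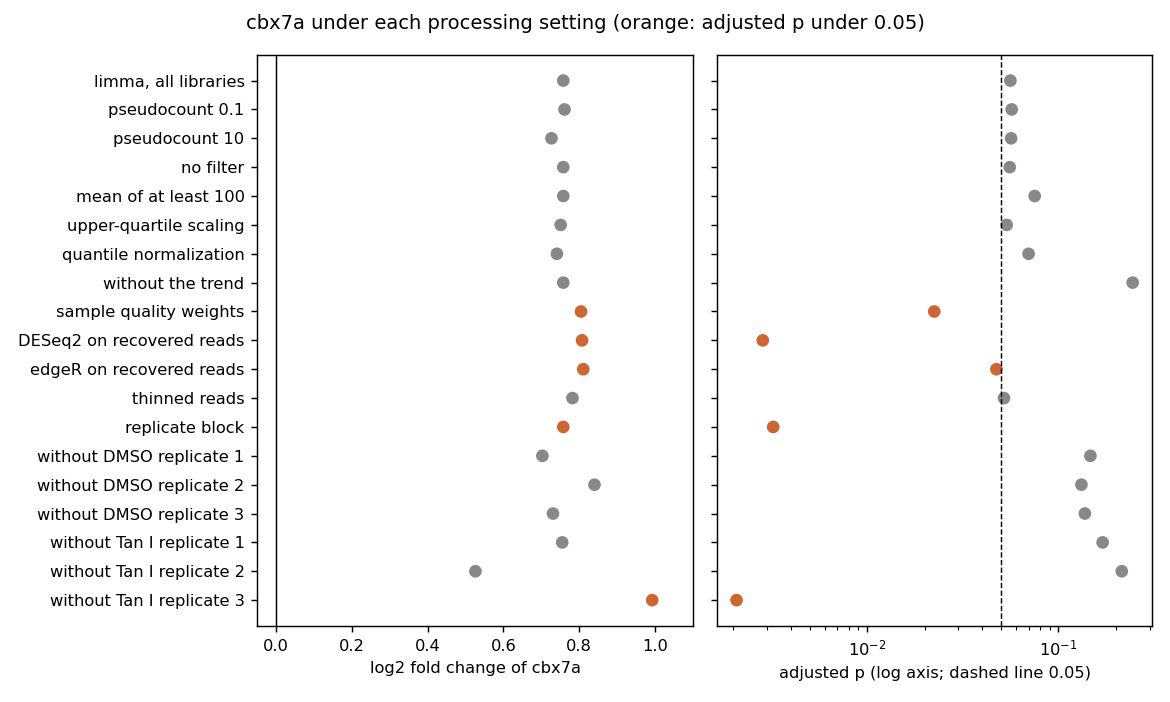
The log2 fold change of cbx7a (left, Tan I minus DMSO) and its adjusted p (right, log axis, dashed line at 0.05) in the limma fit of all libraries and in the 18 alternatives. Orange points lie under 0.05. The log2 fold change is lowest (0.53) where Tan I replicate 2 is left out and highest (0.99) where Tan I replicate 3 is.

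The 3 genes nearest to cbx7a by the pattern over the 6 libraries, a comparison chosen after its values were seen, were zgc:158343, c7b and ier2a, at root mean square differences of 0.0829, 0.102 and 0.109. Of these, c7b has the name of a complement component gene and ier2a that of an immediate early gene. Being chosen for their likeness, they are no further evidence on cbx7a. The myeloid markers mpx, lyz and spi1b also had higher means in Tan I. The paper reports the opposite direction for lyz, largely restricted by Tan I in such embryos, and it reports the same for c-myb. That was seen by whole-mount in situ hybridization, which stains RNA in place, whereas the values here pool RNA from all tissues. The paper also reports a decrease of c-myb GFP-positive cells in c-mybhyper fish after Tan I. It reports fewer lyz EGFP-positive cells in fish without that transgene. Here myb had a log2 fold change of 0.028 (limma adjusted p 0.893). The summed level of mpx, lyz and spi1b ran from 689 to 741 in DMSO. It was 1066, 994 and 767 in Tan I replicates 1 to 3. Most of the sum was mpx, the myeloperoxidase gene, which was highest in Tan I replicate 1 (839, 739 and 577). Like cbx7a, lyz was highest in Tan I replicate 2 (187, 214 and 146). For spi1b it was replicate 3 (40.4, 41.2 and 43.0). None of the 3 was at 0 and none was called in the main limma fit (2.57% of all tested genes). DESeq2 called mpx (adjusted p 0.0369). So did limma with sample quality weights (0.0481), with the replicate block (0.0164) and without Tan I replicate 3 (0.00414). The part of myeloid cells in the cbx7a values was not tested.

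The second cbx7 gene, cbx7b (ENSDARG00000087181), named for its relation to cbx7a, was near the lower end of the table. It had normalized read counts of 11.6, 10.9 and 5.56 in DMSO and 9.33, 6.55 and 7.74 in Tan I. The groups overlapped, and with a mean under 10 it was not tested. The values of cbx7b thus did not lie above DMSO in Tan I, unlike those of cbx7a, and the difference between the paralogs was not tested.

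For cbx2 (ENSDARG00000044938), whose mammalian ortholog compacts nucleosomes and acts in gonad development, the count was 432, 346 and 357 in DMSO and 423, 346 and 342 in Tan I. In both groups replicate 1 stood above the other two libraries, and the groups overlapped almost completely. The log2 fold change of cbx2 was -0.031 ± 0.116 (SE, limma adjusted p 0.928), with an interval of 0.823-fold to 1.16-fold.

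The cbx8 genes overlapped between the groups as well. For cbx8a (ENSDARG00000087327) the count was 192, 231 and 305 in DMSO and 250.3, 202 and 306 in Tan I, a log2 difference of 0.067 ± 0.175 (SE) at a limma adjusted p of 0.895. Replicate 3 was the highest library of both groups, and the groups overlapped. For cbx8b (ENSDARG00000098771) the count was 155, 165 and 197 in DMSO and 136, 159 and 206 in Tan I, a log2 difference of -0.059 ± 0.159 (SE) at a limma adjusted p of 0.899. Here, too, replicate 3 was highest in both groups. The 95% intervals ran from 0.806-fold to 1.36-fold for cbx8a and from 0.756-fold to 1.22-fold for cbx8b. The balance log2(cbx8a + 1) minus log2(cbx8b + 1) was 0.47 ± 0.16 in DMSO and 0.60 ± 0.27 in Tan I (values over 3 libraries ± SD; exact permutation test, two-sided, p = 0.6, adjusted to 0.8 over the 2 paralog pairs).

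The chromobox genes cbx1a, cbx1b, cbx3a, cbx3b and cbx5 encode HP1 proteins that bind methylated H3K9 and are not part of canonical PRC1. They were added to the comparison after the values were seen. None of the 5 was called (2.57% of all tested genes), and the groups overlapped for each (21.1% of all tested genes did not overlap). Their log2 fold changes lay between -0.15 (cbx3a) and 0.028 (cbx3b).

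The PCGF genes that define variant forms had the lowest counts of the 9. In mammals PCGF1 joins KDM2B and BCOR at CpG islands, and PCGF6 joins E2F6, MGA and L3MBTL2 and acts on germ line genes in mouse embryonic stem cells. For pcgf1 (ENSDARG00000001249) the normalized read count was 59.0, 80.1 and 76.7 in DMSO and 62.2, 68.3 and 80.01 in Tan I. The ranges of the groups were almost the same. The log2 fold change of pcgf1 was -0.030 ± 0.186 (SE, limma adjusted p 0.958), and with 51 to 93 reads per library its interval was wide, from 0.741-fold to 1.29-fold. For pcgf6 (ENSDARG00000069681) the count was 99.4, 107 and 116 in DMSO and 97.9, 109 and 118 in Tan I. Libraries with the same number had nearly equal values of pcgf6, and they gave a log2 difference of 0.0097 ± 0.145 (SE) at a limma adjusted p of 0.984, with an interval of 0.810-fold to 1.25-fold.

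The Bmi1 genes were also set against the variant PCGF genes, without a test. The mean log2 level of bmi1a and bmi1b minus that of pcgf1 and pcgf6 was 2.24 ± 0.11 in DMSO and 2.18 ± 0.13 in Tan I (mean of 3 libraries ± SD), and the libraries of the groups overlapped. Across the 8 genes other than cbx7a, the limma adjusted p lay between 0.766 and 0.984, and the 95% intervals together spanned 0.741-fold to 1.36-fold, so that a doubling or halving lay outside the interval of each. In no alternative setting was any of these 8 called, where 165 (without the trend) to 1093 (replicate block) of all 20836 genes were. Libraries of a group differed among themselves by a coefficient of variation of 2.61% (rnf2 in DMSO) to 23.7% (cbx8a in DMSO). For 6 of the 9 genes the highest DMSO and the highest Tan I library had the same number, and for bmi1b, cbx8a, cbx8b and pcgf6 it was number 3. The share of all tested genes with such a match was not computed. The 9 genes were also measured in the same libraries, so the count cannot be read as a trait of these genes. The labels do not say that a number marks a shared clutch or day.

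**Figure D3:**
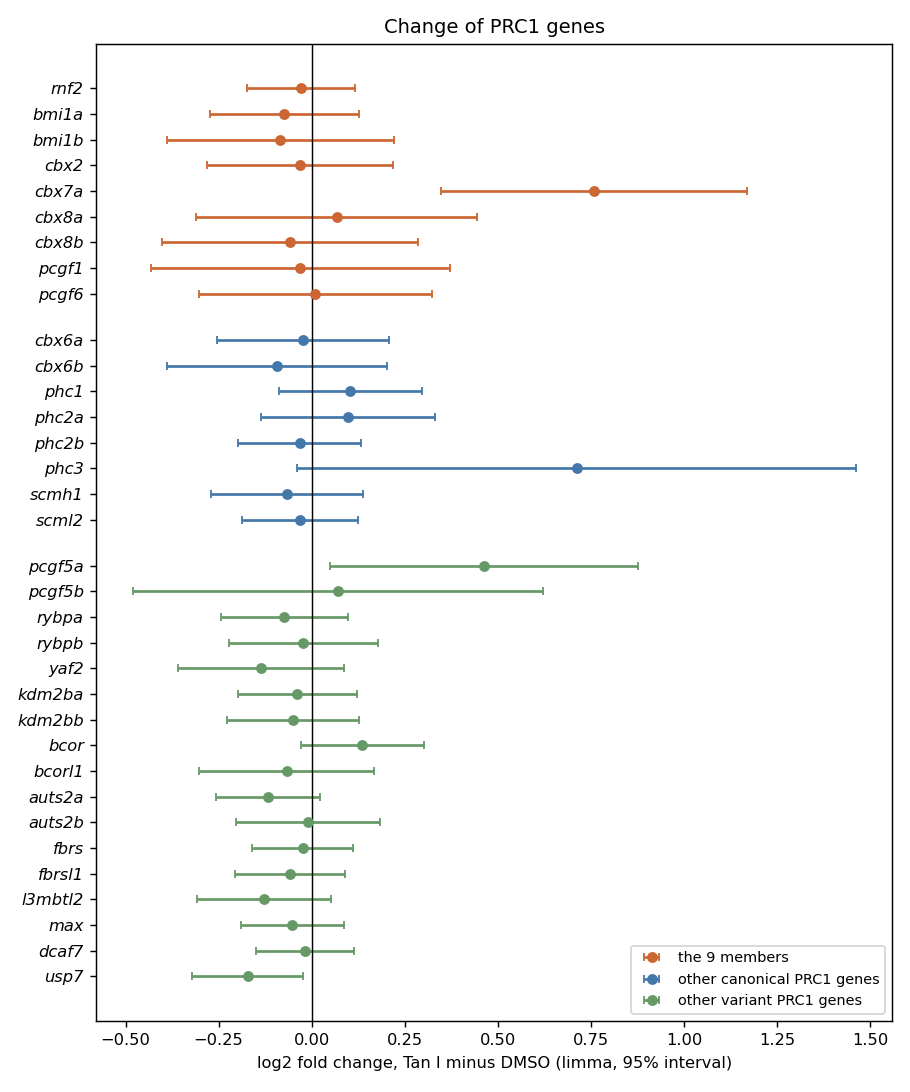
Log2 fold change (horizontal axis, Tan I minus DMSO) with its 95% interval from limma for the 9 PRC1 genes (orange), the other canonical PRC1 genes (blue) and the other variant PRC1 genes (green). The interval of cbx7a runs from 0.35 to 1.17, and those of the 8 other genes of the first group hold 0.

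The rest of PRC1 was taken from a list of 31 further genes, of which 26 were found in the table and 25 tested. None of the 25 was called by limma (2.57% of all tested genes), and 2 had an unadjusted limma p under 0.05 (15.3% of all). The groups did not overlap for 5 of the 25, 2 higher and 3 lower (21.1% of all). The median log2 fold change was -0.033, against -0.0067 over all tested genes. The symbols ring1, pcgf2, pcgf3, e2f6 and mga matched no row and were not analysed here.

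Among these, 8 genes of canonical PRC1 were tested, with 3 higher, 5 lower and a median of -0.028 (-0.0041, -0.0028 and -0.012 without DMSO replicate 1, DMSO replicate 3 and Tan I replicate 2). The value farthest from 0 was that of phc3, one of the Polyhomeotic genes whose products polymerize through SAM domains. Its normalized read count was 9.25, 10.9 and 14.5 in DMSO and 27.2, 16.9 and 15.5 in Tan I. The groups of phc3 did not overlap, at counts close to the lower limit of the test, and the log2 difference was 0.71 ± 0.35 (SE, limma adjusted p 0.357). For phc1 and phc2a the log2 fold changes were 0.10 and 0.097 (limma adjusted p 0.628 and 0.725). The CBX genes cbx6a and cbx6b, named as relatives of the members, lay at -0.024 and -0.093.

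Of the 17 tested genes of variant PRC1, 3 were higher and 14 lower (10110 and 10726 of all 20836), with a median of -0.050. Without DMSO replicates 1, 2 and 3 in turn the median was -0.094, -0.013 and -0.023, and without Tan I replicate 2 it was -0.031. The smallest p was that of usp7, which encodes a deubiquitinase found with PRC1. Its count was 2064, 2009.6 and 1929 in DMSO and 1745, 1686 and 1901 in Tan I, so that each Tan I library was lower than each DMSO library. The log2 difference was -0.17 ± 0.07 (SE), at a limma adjusted p of 0.255. The next was pcgf5a, a PCGF gene of variant PRC1, at 47.4, 47.4 and 66.7 in DMSO and 75.4, 75.8 and 69.7 in Tan I. Its Tan I libraries all lay above DMSO, and the log2 difference was 0.46 ± 0.19 (SE) at a limma adjusted p of 0.268. The third was auts2a, with a log2 fold change of -0.12 (limma adjusted p 0.424). The genes for the Rybp and Yaf2 subunits, rybpa, rybpb and yaf2, named for their role, lay between -0.14 and -0.023.

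The enzymes that remove ubiquitin from H2A oppose PRC1. A list of genes for such enzymes (bap1, usp16 and mysm1) also held asxl1, asxl2, foxk1 and foxk2, which do not encode such enzymes. Of 7 tested genes of this list none was called (2.57% of all tested genes), and 2 had an unadjusted limma p under 0.05 (15.3% of all). The groups did not overlap for 2 of the 7, each lower in Tan I (21.1% of all). By direction, 1 was higher and 6 were lower (10110 and 10726 of all 20836). The median log2 fold change was -0.098. For bap1, the catalytic gene of the PR-DUB complex, the count was 615, 695 and 678 in DMSO and 529, 554 and 576 in Tan I. The Tan I libraries were all below the DMSO libraries, and the log2 difference was -0.26 ± 0.08 (SE, limma adjusted p 0.141, or 0.0487 with sample quality weights, the one setting in which bap1 was called). Next were foxk2 at -0.19 ± 0.07 (SE, limma adjusted p 0.234) and asxl2 at -0.098 ± 0.094 (SE, limma adjusted p 0.671), which encode partners of Bap1. Without Tan I replicate 2 the median of the list was -0.047.

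PRC2, which places the mark that the CBX proteins read, was compared as the most closely related complex. Of its 12 tested genes none was called (2.57% of all tested genes), and 3 had an unadjusted limma p under 0.05 (15.3% of all). The groups did not overlap for 3 of the 12, all lower (21.1% of all). By direction, 10 of the 12 genes were lower (10726 of all 20836). Their median on the log2 scale was -0.16 (-0.098 without DMSO replicate 3). The gene ezh2 had counts of 733, 942 and 1063 in DMSO and 729, 748 and 850.04 in Tan I, a log2 difference of -0.22 ± 0.12 (SE) at a limma adjusted p of 0.407. For rbbp4, eed and aebp2 the log2 fold changes were -0.19, -0.22 and -0.17 (limma adjusted p 0.216, 0.229 and 0.311). The difference between the PRC1 and PRC2 genes was not tested. The proliferation genes were mostly lower too, at a median of -0.13 with 9 of 12 lower (10726 of all 20836). None was called in the main limma fit (2.57% of all tested genes). With sample quality weights 3 were called, 4 with the replicate block and 1 without Tan I replicate 3 (984, 1093 and 709 of all 20836). In the main fit 5 of the 12 had an unadjusted limma p under 0.05 (15.3% of all). The groups did not overlap for 6 of the 12 proliferation genes, all lower (21.1% of all). Their summed level was 29602 to 30698 in DMSO and 26711 to 28294 in Tan I, and the genes with the smallest p were mcm2, mcm3 and mcm6, with log2 fold changes of -0.26, -0.27 and -0.22 (limma adjusted p 0.0767, 0.0825 and 0.131). Their part in the PRC2 values was not tested.

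**Figure D4:**
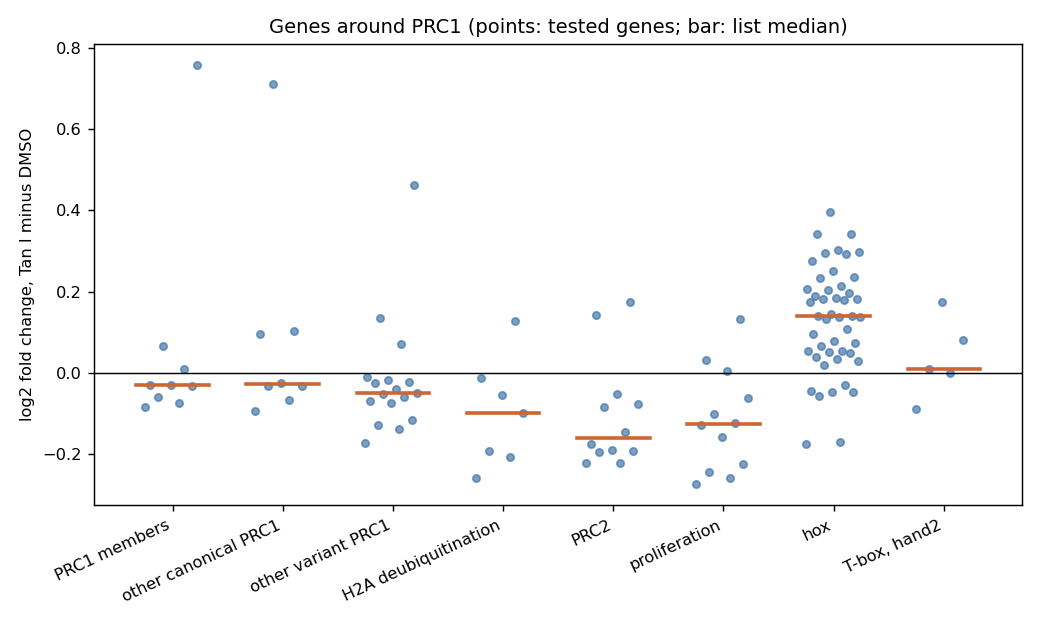
Log2 fold changes (vertical axis, Tan I minus DMSO) of the tested genes in 8 gene lists around PRC1, with 1 point per gene and the median as an orange bar. The medians run from -0.16 for PRC2 to 0.14 for the hox genes, and that of the 9 PRC1 members is -0.030. The member median is -0.083 without DMSO replicate 1 and 0.052 without Tan I replicate 1.

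Genes that PRC1 is known to repress were looked at last. In this RNA of whole embryos they had reads already in DMSO, at very different levels. The DMSO means ran from 86.8 (tbx5a) to 1459 (tbx2b) among the tested genes repressed through rnf2. Among the tested hox genes they ran from 17.8 (hoxa11a) to 1186 (hoxb3a). A rise confined to part of the cells could be diluted, so silencing by PRC1 was not tested. A short list of genes repressed through rnf2 had 5 tested genes, the T-box genes tbx2a, tbx2b, tbx3a and tbx5a, and hand2. None of the 5 was called (2.57% of all tested genes). Their median log2 fold change was 0.010 (-0.011 without DMSO replicate 1 and 0.10 with sample quality weights). The smallest p was that of tbx3a, at 0.18 ± 0.11 (SE, limma adjusted p 0.485), followed by tbx2b at 0.082 and hand2 at -0.087 (limma adjusted p 0.614 and 0.703). For tbx5a, named for its role after the values were seen and needed for the pectoral fin bud, the log2 difference was 0.010 ± 0.178 (SE) at a limma adjusted p of 0.987, with an interval of 0.771-fold to 1.32-fold. Of 47 tested hox genes none was called (2.57% of all tested genes), and 4 had an unadjusted limma p under 0.05 (15.3% of all tested genes). The groups did not overlap for 6 of the 47, 5 higher and 1 lower (21.1% of all). By direction, 40 were higher (10110 of all 20836), with a median of 0.14. This median was 0.069 with sample quality weights and 0.073 without Tan I replicate 1. The summed hox level was highest in Tan I replicate 1 (14052, against 11897 and 12283 in the other Tan I libraries and 11259 to 11962 in DMSO). The hox genes with the smallest p were hoxc12b (0.34 ± 0.14), hoxa4a (0.19 ± 0.08) and hoxb5b (0.25 ± 0.11), given as log2 fold change with SE, at limma adjusted p of 0.277, 0.292 and 0.315. Any stretch that hox copies share would lose reads, since only uniquely mapping reads had been kept.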

How the data were processed

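Total RNA of embryos was sequenced in pairs on an Illumina instrument. As described for the study, the authors aligned reads to GRCz11 with STAR, removed reads mapping to several places, counted reads per gene with featureCounts and used DESeq2. Tool versions and the strand setting are not given in the sources used here, which leaves genes that overlap others uncertain. Deposited signal values hold reads per gene after division by a library-wide size factor, and the deposited mean of the 6 libraries was not used in any test. Columns of a comparison by the authors (log2 fold change, standard error, test statistic as a score, p-value, adjusted p-value) were present and not used. Division by the value of 1 read gave whole reads (tolerance 0.01) for 100% of values in each library.

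Values were analysed as log2(value + 1), which understates changes of weak genes. The 20836 genes with a mean of at least 10 were fitted with limma 3.58.1 (lmFit, eBayes with trend) in R 4.3.3, Tan I against DMSO, 2-sided, with Benjamini-Hochberg adjustment over all of them. DESeq2 1.42.0 and edgeR 4.0.16 (quasi-likelihood, TMM) served as alternatives on recovered reads, as the values are normalized. The other alternatives were pseudocounts of 0.1 and 10, no filter, a mean of at least 100, upper-quartile and quantile scaling, no trend, sample quality weights, thinned reads, a replicate block and leaving out each library. The tests were tried on simulated data first. Pairs of libraries within a group differed by a chi-square per gene of 3.82 to 14.6, so none was a repeat of another.

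The members, lists and tests were chosen with earlier results of these data known. Named genes were the 9 members, ezh2, up to 3 genes of each list with the smallest limma p, and the 3 genes nearest to rnf2 in pattern. Outside this rule, cbx7b, cbx6a, cbx6b, rybpa, rybpb, yaf2, tbx5a, the HP1 genes and the genes nearest to cbx7a were named after their values were seen. Marker genes are given by list. A table of gene names gave the same symbol for 5 of the 9 gene IDs and, for the other 4, the name without the paralog letter. Protein and promoter sequences were not used here. A gene was taken out of the canonical PRC1 list and is not reported here.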

Additional observations from a re-analysis of the deposited data

How the results depend on the processing

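The number of members called was 0 of 9 in the main limma fit (536 of all 20836 genes). It was 1, cbx7a, with sample quality weights, DESeq2, edgeR and the replicate block (984, 653, 561 and 1093 of all 20836). When single libraries were left out it was 0 to 1 (213 to 709 of all 20836). The log2 fold change of cbx7a was 0.80, 0.81, 0.81 and 0.76 in those 4 settings, and 0.53 to 0.99 when single libraries were left out. With the replicate block its limma adjusted p was 0.00323. Its SE was 0.137 with the block and 0.189 without it. Across genes, the deviations of DMSO and Tan I libraries sharing a number had correlations of 0.081, -0.029 and 0.21. Not every library correlated best with its own number. The labels give no pairing, and the main fit did not take the numbers as pairs. Whether a number marks a shared batch was not tested.

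The small log2 fold changes of the other members changed sign in places. That of cbx2 was 0.0048 after thinning, and that of pcgf6 was -0.030 with quantile normalization. When single libraries were left out, the ranges were -0.26 to 0.067 for bmi1b, -0.13 to 0.068 for cbx2, -0.088 to 0.24 for cbx8a, -0.22 to 0.078 for cbx8b, -0.17 to 0.053 for pcgf1, -0.054 to 0.078 for pcgf6 and -0.049 to 0.0097 for rnf2, and bmi1a kept its sign. The paralog balances differed between the groups by -0.074 to 0.18 for bmi1 and by -0.014 to 0.25 for cbx8 in the same way.

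Of the H2A deubiquitination genes 1, bap1, was called with sample quality weights. With the replicate block, 4 of the 12 proliferation genes and the myeloid marker mpx (limma adjusted p 0.0164) were called. Over all genes, 536 were called in the main limma fit, 165 without the trend, 984 with sample quality weights and 1093 with the replicate block. When single libraries were left out, 213 to 709 were called (213 without DMSO replicate 2, 330.0 and 258 without Tan I replicates 1 and 2). The cause was not tested. The median log2 fold change of all genes stayed between -0.019 and -0.00052 in these settings. The filter at 100 left pcgf1, with 51 to 93 reads per library, untested.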
